A study of Mus musculus with 8 samples.

Results

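Chromatin accessibility was examined at 10 genes of histone methylation in leukemic and non-leukemic mouse marrow cells. These were the MLL family genes Kmt2a, Kmt2b, Kmt2c, Kmt2d and Kmt2e, the menin gene Men1, and Dot1l, Kdm1a, Kdm6b and Setd2. A region belonged to a gene when the gene's annotated extent was the nearest of all genes to the centre of the region, within 100 kb. By that rule 64 of 160978 regions were assigned to the 10 genes, from 2 at Kmt2b to 12 at Kmt2c, and the farthest lay 6.29 kb outside its gene. Of the 64, 10 lay within 1 kb of an end of any gene and are called gene-end regions, 49 were other regions inside a gene, and 5 were intergenic. A centre that also fell inside a second gene counted for the listed gene, as happened at 10 regions.

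ATAC-seq, in which a transposase inserts sequencing adapters into open chromatin, was run on cells sorted from mouse bone marrow as cKit+ Lymph- Ery-, a gate that keeps stem cells and early progenitors. The AML side held 2 libraries of genotype URE-delta/+;Tet2+/- and 2 of URE-delta/+;Tet2-/-. The normal side held 1 library each of URE-delta/+;Tet2+/+, URE+/+;Tet2+/-, URE+/+;Tet2-/- and URE+/+;Tet2+/+. The URE is a distal enhancer of Spi1, the gene of the myeloid transcription factor PU.1, and Tet2 encodes an enzyme that oxidises methylated cytosine in DNA. All groups were cells of the same sort, the labels call the controls age-matched without giving an age, and no normal library carried both alleles, so leukemia and the combined genotype cannot be told apart.

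The authors compared leukemic against non-leukemic marrow of low PU.1, which gave 1 log2 fold change per region, and a positive value means more accessible in leukemic cells. The libraries entered on either side are not named in the sources used here. Since the URE deletion is in 1 normal library only, the non-leukemic values may come from that library alone. The normal Tet2+/- and Tet2-/- libraries were the ones in lane 8, and lanes 6 and 7 held the others. Values per library were not used, so for every fold below the spread among mice and the depth are unknown. The words rose and fell are kept for regions with the authors' adjusted p-value under 0.001. Log2 average abundance is the authors' measure of read level in a region, the sources used here do not say whether it is scaled to width, and it is used here only to describe a region.

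Most proteins of these genes write or remove methyl groups on histone H3. Kmt2a and Kmt2b enzymes methylate lysine 4 at promoters, and menin, a scaffold, tethers them to chromatin. Kmt2c and Kmt2d enzymes methylate the same lysine at enhancers, while the Kmt2e protein binds that mark and is thought to have little or no methyltransferase activity. Dot1l methylates lysine 79 in transcribed genes, and Setd2 trimethylates lysine 36 there. Kdm1a, also called LSD1, removes methyl groups from lysine 4 and works with repressors such as Gfi1, and Kdm6b removes them from lysine 27. KMT2A is rearranged in human acute leukemias, and DOT1L, menin and LSD1 are drug targets in them.

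Promoters are shown for Kdm1a, Kmt2c and Dot1l, which each held a region inside that rose or fell, and for Men1. A region was measured at each of these promoters. Regions were also measured at the promoters of Kmt2a, Kmt2d and Setd2, which are not shown. The sequences are the 250 bases before the annotated start, from RefSeq with coordinates of GRCm38.p6, written along the gene's strand. Of the 10 genes, 7 had a promoter in that table, with 9 starts in all, 3 of them at Men1, whose first is printed. Capitals mark matches to GGAAGT (ETS core), GGGCGG (SP and KLF factors) and CCAAT (NFY) on either strand.
Kdm1a, chr4:136602724-136602973, minus strand: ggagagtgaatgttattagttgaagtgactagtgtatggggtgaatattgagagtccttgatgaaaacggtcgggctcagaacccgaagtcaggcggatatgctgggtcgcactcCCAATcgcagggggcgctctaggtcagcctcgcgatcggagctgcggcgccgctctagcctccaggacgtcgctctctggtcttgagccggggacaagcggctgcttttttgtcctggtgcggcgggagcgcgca
Men1, chr19:6334729-6334978, plus strand: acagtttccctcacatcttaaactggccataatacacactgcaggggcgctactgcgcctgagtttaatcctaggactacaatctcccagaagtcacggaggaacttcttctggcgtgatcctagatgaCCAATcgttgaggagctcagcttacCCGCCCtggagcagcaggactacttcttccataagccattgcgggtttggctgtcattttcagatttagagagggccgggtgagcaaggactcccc
Kmt2c, chr5:25498784-25499033, minus strand: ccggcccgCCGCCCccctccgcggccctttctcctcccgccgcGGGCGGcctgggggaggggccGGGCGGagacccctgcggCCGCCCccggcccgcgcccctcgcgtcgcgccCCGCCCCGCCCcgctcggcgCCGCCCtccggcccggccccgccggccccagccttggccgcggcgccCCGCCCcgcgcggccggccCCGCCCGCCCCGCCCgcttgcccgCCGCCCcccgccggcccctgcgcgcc
Dot1l, chr10:80754953-80755202, plus strand: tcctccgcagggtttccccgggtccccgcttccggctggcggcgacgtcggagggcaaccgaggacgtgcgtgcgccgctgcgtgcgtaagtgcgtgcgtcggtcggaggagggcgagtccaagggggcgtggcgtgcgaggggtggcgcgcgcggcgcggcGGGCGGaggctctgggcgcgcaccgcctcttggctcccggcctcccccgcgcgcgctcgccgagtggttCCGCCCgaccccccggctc

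Kmt2c had the highest content of G and C of the 7 genes, 91.6%, against a median of 52.4% over 32851 promoters of all genes, and 12 matches to GGGCGG. The Kdm1a promoter, at 59.2%, held no GGGCGG and 1 CCAAT. Those of Kmt2a, Kmt2d, Dot1l and Setd2 were at 67.6% to 78.4%, and the Men1 starts at 52% to 55.6%. At least 1 GGGCGG was present at 6 of the 7 genes and 8 of their 9 starts, against 32.7% of all promoters. CCAAT was present at Kdm1a and Men1, 4 of the 9 starts, against 33.8% of all promoters. GGAAGT was found at 0 of the 7 genes, against 19.7% of all promoters, which leaves none for its longer PU.1 and ETS forms. The E-box CACGTG (6.02% of all promoters) was likewise absent from the 7. The same held for the AP-1 site TGANTCA, present in 6.75% of all promoters. The RUNX site TGTGGT (14.0% of all promoters) was not found either. Nor was the GATA site AGATAA (9.99% of all promoters), with both strands read each time. No share was adjusted for the content of G and C. A match or its absence describes these letters in this window and nothing more.

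Of the 64 regions, 3 rose and 1 fell, at Kdm1a, Kmt2e, Kmt2c and Dot1l, and all 4 lay inside genes. That is 4.69% rising, where 1.24% of all 160978 regions rose, and 1.56% falling, where 1.22% of all regions fell. Among the 49 interior regions the shares were 6.12% and 2.04%, beside 1.34% and 1.20% of all interior regions. At an adjusted p under 0.05 the members counted 10 positive and 1 negative regions, where 7.98% and 9.21% of all regions passed in those directions. Kmt2a, Kmt2b, Kmt2d, Men1, Kdm6b and Setd2 had no region that passed 0.001. Among the 5 intergenic regions 0 passed, where 1.09% of all intergenic regions rose and 1.14% fell. Without Kmt2c and Kmt2e, both on chromosome 5, 45 regions remained, of which 1 rose and 1 fell, 2.22% each. Fewer cells of a type with an open region and less opening per cell cannot be told apart in these bulk libraries.

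**Figure D1:**
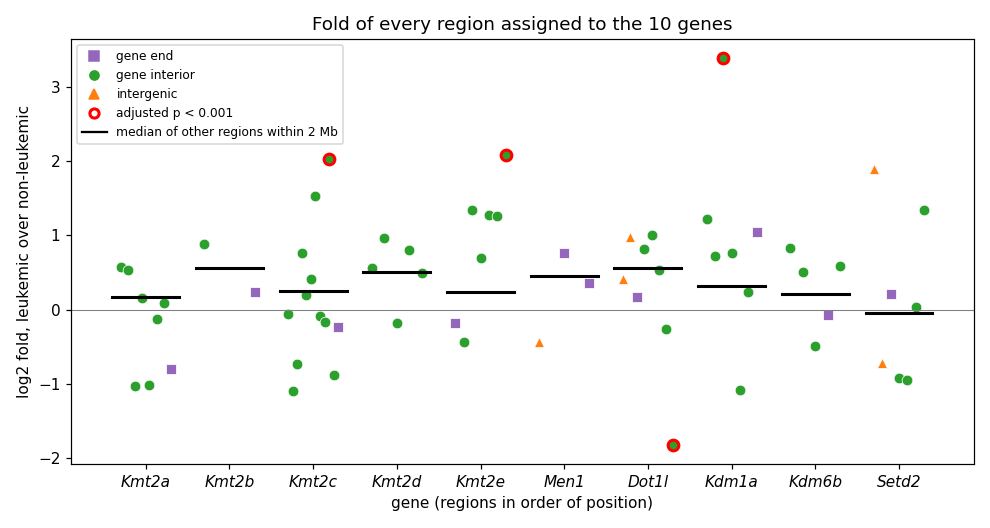
Log2 fold change, leukemic over non-leukemic, of each of the 64 regions, by gene and in order of position along the chromosome. Marker shape gives the class of the region, a red edge an adjusted p under 0.001, and the black line the median of the other regions within 2 Mb of the gene; 3 gains and 1 loss are marked, and the Kmt2e gain lies next to other positive regions.

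Kdm1a held the strongest change of the 10 genes. By the authors' deposited table, the region at chr4:136569920-136570695, inside the gene and 32.4 kb downstream of the annotated start, showed a log2 fold change of 3.38 (adjusted p = 2.08e-05), 10.4-fold higher in leukemic cells. It ranked 249 of 160978 regions by adjusted p-value, and 99.9% of all regions had a lower fold. It was the only one of the 64 regions to rise at an adjusted p under 0.0001, a threshold passed in that direction by 0.387% of all regions, and none fell there, against 0.252% of all regions. Its log2 abundance by the authors' deposited table was 1.43, higher than 89.5% of all regions. The rise was narrow in position. The region 1016 bp away, starting at 136568727, stood at 0.72 (adjusted p = 0.325) by the authors' deposited table, and the next on the other side, 16989 bp away, at 0.76 (adjusted p = 0.259).

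At the Kdm1a promoter the region starting at 136601516 showed a log2 fold change of 1.05 (adjusted p = 0.0595) by the authors' deposited table, the highest of the 10 gene-end regions, and it contained all 250 promoter bases printed above. The region starting at 136559818 was similar, at 1.21 (adjusted p = 0.0556) by the authors' deposited table. Nearest to the promoter inside the gene, the region starting at 136598169 stood at 0.24 (adjusted p = 0.782) by the authors' deposited table. Of the 7 Kdm1a regions 6 were positive, and the remaining one, a region of low abundance starting at 136592233, stood at -1.08 (adjusted p = 0.329) by the authors' deposited table. The median of the 7 was 0.76, against 0.31 for the 559 other regions within 2 Mb of the gene.

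Kmt2e, which encodes a reader of methylated lysine 4 needed for normal blood stem cells in mice, had positive values over much of its length. The region at chr5:23500264-23501686 showed a log2 fold change of 2.08 (adjusted p = 5.59e-04) by the authors' deposited table, 4.22-fold higher in leukemic cells. It lay 3.26 kb inside one end of Kmt2e, and an end of the neighbour Srpk2 was nearer, 2.38 kb away. It counts for Kmt2e because its centre fell inside that gene's extent, and a link to either gene was not tested. The regions starting at 23461756, 23483845 and 23490868 stood at 1.34, 1.28 and 1.27 (adjusted p = 0.0249, 0.0108 and 0.0355) by the authors' deposited table. These 3 did not pass 0.001. The region starting at 23473205, between them, showed a log2 fold change of 0.70 (adjusted p = 0.408) by the authors' deposited table.

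The end of Kmt2e with the lower coordinate differed. Its broad region at chr5:23432440-23436026, with a log2 abundance of 5.94, showed a log2 fold change of -0.17 and an adjusted p of 1.00 by the authors' deposited table. The first interior region, starting at 23444522, stood at -0.43 (adjusted p = 0.569) by the authors' deposited table. Over the 7 regions the median was 1.27, against 0.24 for the 333 other regions within 2 Mb. Those 333 regions had quartiles of -0.38 and 0.69, a spread of single regions and not of medians.

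Beyond that end lies 5031425E22Rik, a long non-coding RNA gene that overlaps the end of Kmt2e and is the nearest gene to 5 further regions. By the authors' deposited table, 2 of them rose, with log2 fold changes of 2.22 (adjusted p = 7.41e-04) and 2.57 (adjusted p = 1.97e-05), 46.6 and 38.6 kb from Kmt2e. The other 3, between these and Kmt2e, stood between 0.24 and 0.33 with adjusted p of 0.502 to 0.904 by the authors' deposited table. They are not among the 64, but with protein-coding genes alone they fall to Kmt2e, which then had 3 of the 5 rises of the 10 genes. On the far side, 16962 bp beyond the Kmt2e region that rose, the next region stood at 1.50 (adjusted p = 0.0179) by the authors' deposited table.

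Kmt2c, a methyltransferase gene of enhancers that is lost or mutated in some human myeloid leukemias, had 12 regions over 227.1 kb. The region at chr5:25475789-25476117, 22.8 kb downstream of the annotated start, showed a log2 fold change of 2.03 (adjusted p = 2.01e-04) by the authors' deposited table, 4.09-fold higher in leukemic cells. The region starting at 25436117 followed at 1.54 (adjusted p = 0.00293) by the authors' deposited table and did not pass the threshold. Both stood alone. The neighbours of the risen region, 3331 and 2862 bp away, were at -0.17 (adjusted p = 0.835) and -0.88 (adjusted p = 0.365) by the authors' deposited table.

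At the Kmt2c promoter the region at chr5:25497213-25500540, with a log2 abundance of 5.70, showed a log2 fold change of -0.23 (adjusted p = 0.274) by the authors' deposited table. Of the 12 regions 5 were positive, with a median of -0.07, against 0.25 for the 279 other regions within 2 Mb. The lowest, starting at 25310033 and near the lowest abundance of the table, stood at -1.09 (adjusted p = 0.444) by the authors' deposited table.

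Dot1l, the lysine 79 methyltransferase gene, held the only region of the 64 that fell. By the authors' deposited table, the region at chr10:80792219-80792960 showed a log2 fold change of -1.81 (adjusted p = 7.23e-04), 3.51-fold lower in leukemic cells. It lay 37.4 kb downstream of the annotated start and 2.87 kb inside the far end of the gene. The region 503 bp away stood at -0.26 (adjusted p = 0.685) by the authors' deposited table, and the next on the other side, 4473 bp away, at 0.10 with an adjusted p of 1.00. No neighbour had a loss of like size.

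The other end of Dot1l was different in sign. The promoter region starting at 80754845 showed a log2 fold change of 0.17 and an adjusted p of 1.00 by the authors' deposited table. The regions starting at 80757767 and 80763461 stood at 0.82 (adjusted p = 0.0651) and 1.00 (adjusted p = 0.0334) by the authors' deposited table. In mid-gene the region starting at 80774510 stood at 0.54 (adjusted p = 0.270) by the authors' deposited table. Upstream of the gene, the regions starting at 80748725 and 80751173 stood at 0.42 (adjusted p = 0.483) and 0.97 (adjusted p = 0.0832) by the authors' deposited table. Dot1l lies in a stretch of chromosome 10, from 76 to 83 Mb, where 75.7% of 742 regions were positive and the median was 0.50. Its own median of 0.48 compares with 0.57 for the 431 other regions within 2 Mb, and relative to that surrounding the region that fell stood at -2.38.

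**Figure D2:**
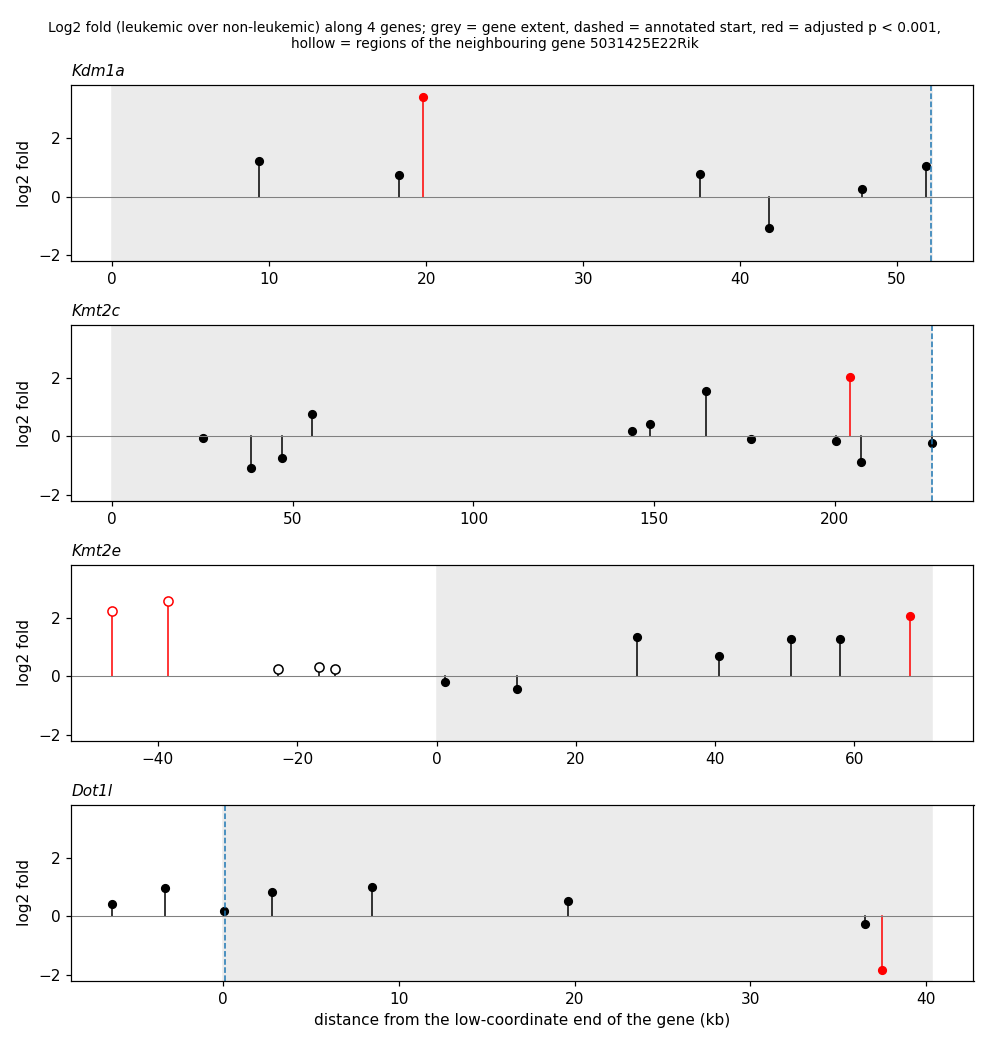
Log2 fold change, leukemic over non-leukemic, at the centre of each region against distance in kb from the low-coordinate end of Kdm1a, Kmt2c, Kmt2e and Dot1l. Grey marks the extent of the gene, the dashed line its start where the promoter table gives one, red an adjusted p under 0.001, and hollow points the regions nearest to 5031425E22Rik; the rises at Kdm1a and Kmt2c are single regions, while 5 Kmt2e regions in a row are positive.

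Kmt2a, the founding MLL gene, showed no direction. Its 8 regions centred on a log2 fold change of -0.01 (median) and 4 were positive, from -1.03 to 0.58. Of the 8, 6 also lie inside Gm39326, an overlapping gene. The lowest adjusted p was 0.127 by the authors' deposited table, at the region starting at 44867723. At the Kmt2a promoter a region 4458 bp wide, starting at 44878863, showed a log2 fold change of -0.80 (adjusted p = 0.861) with a log2 abundance of only -1.25 by the authors' deposited table. The sources used here do not say how the authors summarised wide regions. A p-value of exactly 1 occurred at 7.86% of the 22036 regions wider than 1000 bp and at 0 of the 71741 regions no wider than 300 bp. The fold and abundance of a wide region may then describe a part of it, which touches the 15 regions of the 64 that are wider than 1000 bp, most gene-end regions and the Kmt2e region that rose among them.

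Kmt2b and Kmt2d had mostly positive values, none of which passed 0.05. At Kmt2b the promoter-side region starting at 30588015, with a log2 abundance of 5.07, stood at 0.24 (adjusted p = 0.315) and the interior region at 0.89 (adjusted p = 0.222) by the authors' deposited table. Of 5 Kmt2d regions 4 were positive, with a median of 0.56, the highest 0.97 (adjusted p = 0.220) and the lowest adjusted p 0.131 at a fold of 0.80 by the authors' deposited table. The region over the Kmt2d start in the promoter table, starting at 98871281, showed a log2 fold change of 0.49 (adjusted p = 0.469) by the authors' deposited table, and it counts as interior because the gene's extent reaches farther. Both genes had surroundings with similar values, 0.56 within 2 Mb of Kmt2b and 0.51 within 2 Mb of Kmt2d.

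Men1 had 3 regions. The promoter region starting at 6334328 stood at 0.76 (adjusted p = 0.179) and the one at the other end, starting at 6339905, at 0.35 (adjusted p = 0.501) by the authors' deposited table. A region 3.43 kb outside the gene, starting at 6331174, stood at -0.43 (adjusted p = 0.603) by the authors' deposited table. The Men1 median of 0.35 was below the 0.46 of the 395 other regions within 2 Mb.

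Kdm6b, the lysine 27 demethylase gene that inflammatory signals induce in macrophages, had 5 regions with a median of 0.50. The interior region starting at 69401239 showed a log2 fold change of 0.84 (adjusted p = 0.0259) by the authors' deposited table, under 0.05 but not 0.001. The lowest Kdm6b value was -0.48 (adjusted p = 0.182) at the region starting at 69414129 by the authors' deposited table. A region 3580 bp wide, starting at 69408612, stood at 0.50 (adjusted p = 0.799) by the authors' deposited table. Its only gene-end region, at an end of the non-coding gene Gm51903 and not of Kdm6b, stood at -0.06 with an adjusted p of 1.00 by the authors' deposited table.

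Setd2, the lysine 36 methyltransferase gene whose loss is found in some human leukemias, had values on both sides of 0. A region 3.31 kb upstream of the gene, starting at 110529092, showed a log2 fold change of 1.89 (adjusted p = 0.00537) by the authors' deposited table, the highest of the 64 outside a gene. The region between it and the promoter, starting at 110530612, stood at -0.71 (adjusted p = 0.191) by the authors' deposited table. At the promoter itself the region starting at 110531798 stood at 0.21 (adjusted p = 0.745), and the first 2 interior regions at -0.91 (adjusted p = 0.233) and -0.94 (adjusted p = 0.166) by the authors' deposited table. The interior region farthest into the gene, starting at 110568418, stood at 1.34 (adjusted p = 0.115) by the authors' deposited table, where its log2 abundance was only -2.50. The Setd2 median was 0.03, against -0.04 within 2 Mb.

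The 10 gene-end regions of the members ran from -0.80 at Kmt2a to 1.05 at Kdm1a, with a median of 0.19, equal to the 0.19 of all 24895 gene-end regions. None of them passed 0.001 or 0.05 after adjustment, and 1, at Kdm1a, had an unadjusted p under 0.05, while 1.22% of all gene-end regions rose and 1.43% fell, or 9.79% and 8.42% at 0.05. Their quartiles were -0.15 and 0.33, beside -0.44 and 0.67 over all gene-end regions. The 49 interior regions ran from -1.81 to 3.38 with a median of 0.50, against -0.02 over all 85906 interior regions. Their quartiles were -0.18 and 0.84, beside -0.75 and 0.59 over all interior regions. The ranges rest on unequal numbers of regions and are not compared. The gene-end regions were broader, with a median width of 1688 bp against 293 bp for interiors, and had a median log2 abundance of 3.23 against -1.16.

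**Figure D3:**
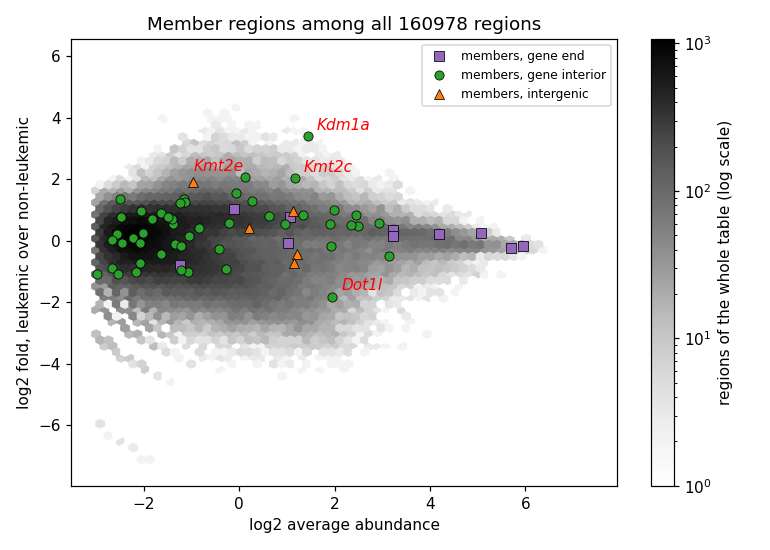
Log2 fold change, leukemic over non-leukemic, against log2 average abundance of the 64 regions, over the density of all 160978 regions in grey. Gene-end regions, as squares, lie between -0.80 and 1.05, and the 4 regions with an adjusted p under 0.001 are named.

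The higher centre of the interior regions was shared by the surroundings of these genes. Medians of the other regions within 2 Mb ran from -0.04 at Setd2 to 0.57 at Dot1l, and 9 of the 10 were above 0. With each gene's surrounding median subtracted, the interior median became 0.07, the gene-end median became -0.30, and 31 of the 64 regions stood above their surroundings. The Kdm1a, Kmt2e and Kmt2c regions that rose kept values of 3.07, 1.83 and 1.78. The windows of Kmt2c and Kmt2e on chromosome 5 overlap, so these surroundings are not independent.

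**Figure D4:**
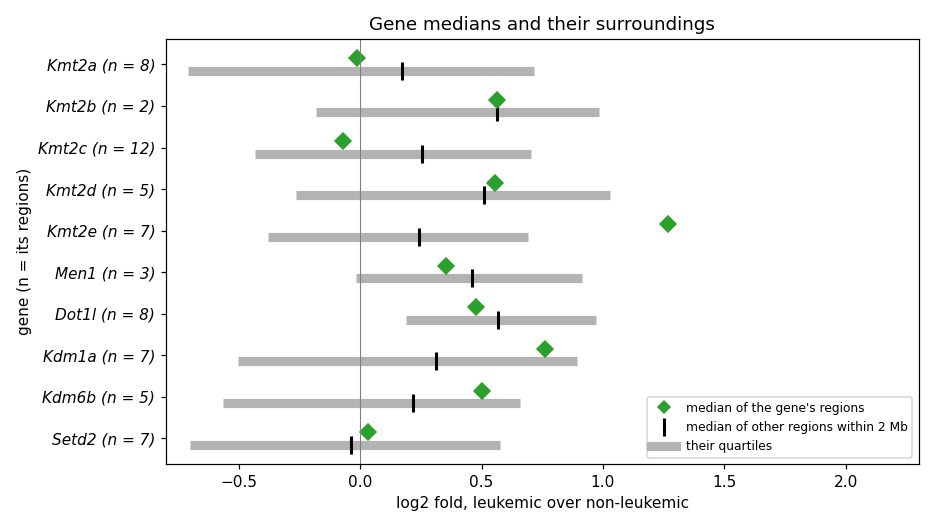
Median log2 fold change, leukemic over non-leukemic, of each gene's regions (diamonds) and of the other regions within 2 Mb (black ticks, with grey bars for their quartiles). The bars show the spread of single regions and are no yardstick for a median of few regions; the Kmt2e median is 1.27, with 0.24 around it, and the Dot1l median is 0.48, with 0.57 around it.

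Other genes of these pathways, 61 in all with 759 regions, had 24 regions that rose and 16 that fell, at 11 and 8 genes, with a median log2 fold change of 0.01. That is 3.16% rising and 2.11% falling, beside the 1.24% and 1.22% of all regions and their median of 0.02. Among 6 genes of MLL complex subunits, not all of them shared by every complex, 1 had a rise and 1 a fall, with a median of 0.21 over 27 regions. Each is 3.70% of the 27. A gene-end region of Ash2l, a core subunit needed for full methyltransferase activity, stood at 3.63 (adjusted p = 3.88e-06) by the authors' deposited table. An intergenic region near Hcfc2, a host cell factor gene, stood at -1.97 (adjusted p = 3.26e-04) by the authors' deposited table. The 4 partners of the Kmt2c and Kmt2d enzymes and the 2 menin partners had no region that passed, with medians of -0.17 over 24 regions and 0.32 over 7. The 3 SET1 genes, which encode the other lysine 4 methyltransferases and their CpG-binding partner, had none either. All 8 of their regions were positive, with a median of 0.94. Of the 8, 4 had an adjusted p under 0.05, where 7.98% of all regions passed in that direction. Setd1b held 3 of these, Cxxc1 1 and Setd1a 0.

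Of the 11 genes of Dot1l and elongation partners, Aff1 and Ell had 2 regions and 1 that rose, and Aff3 had 3 that fell. The median over 221 regions was -0.20. The share was 1.36% in each direction, near the 1.24% rising and 1.22% falling of all regions. Aff1, a scaffold of the super elongation complex and a fusion partner of KMT2A in human leukemia, stood at 2.04 and 2.47 (adjusted p = 2.83e-04 and 7.19e-05) by the authors' deposited table. Aff3, a relative of Aff1 expressed in lymphoid cells, stood at -3.82, -2.62 and -3.34 (adjusted p = 1.30e-04, 4.49e-04 and 5.80e-05) by the authors' deposited table. All of these lay inside the genes, and the surroundings of Aff1 and Aff3 had medians of -0.16 and -0.21. The region inside Ell, an elongation factor gene, stood at 1.53 (adjusted p = 9.27e-04) by the authors' deposited table. The surroundings of Ell had a median of 0.34. Mllt3 and Mllt10, genes of other KMT2A fusion partners, had no region that passed among 49 and 19.

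Among 12 partners and relatives of Kdm1a, Gse1 and Hmg20b had rises and Phf21a a fall, and the median over 158 regions was 0.08. Of the 158, 1.90% rose and 0.63% fell, beside 1.24% and 1.22% of all regions. Gse1, which encodes a protein found with the CoREST complex, stood at 2.35 and 3.03 (adjusted p = 2.03e-05 and 7.03e-06) by the authors' deposited table. The other regions within 2 Mb of Gse1 had a median of 0.49. A gene-end region of Hmg20b, a CoREST subunit gene, stood at 1.98 (adjusted p = 2.47e-04) by the authors' deposited table, within the same stretch of chromosome 10 as Dot1l. Phf21a, which encodes a reader of unmethylated lysine 4 in that complex, stood at -3.17 (adjusted p = 1.26e-04) by the authors' deposited table, on a part of chromosome 2 where the other regions within 2 Mb had a median of -0.88.

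The lysine 4 demethylase genes had 1 region that rose, inside Kdm5c at 2.26 (adjusted p = 3.01e-04), and 1 that fell, outside Kdm5a at -2.25 (adjusted p = 7.65e-04), by the authors' deposited table. Their 26 regions had a median of -0.17, and 1 region is 3.85% of them, beside 1.24% rising and 1.22% falling among all regions. Of the 9 lysine 36 genes, Nsd3, a dimethyltransferase gene, had 1 rise at 2.04 (adjusted p = 7.41e-04), and Kdm4b, a demethylase gene, had rises at 1.87 and 2.02 (adjusted p = 4.75e-04 and 2.36e-04) by the authors' deposited table. Of the 98 regions of that list 3.06% rose and 0 fell, beside 1.24% and 1.22% of all regions, and the median was 0.35. At an adjusted p under 0.05, 11 were positive and 2 negative. That is 11.2% and 2.04%, where 7.98% and 9.21% of all regions passed in those directions. Nsd3 lies on chromosome 8, as do Ash2l, Ell and Gse1. The Nsd3 and Ash2l regions that rose start at 25714328 and 25847503, so these rises are not spread over separate chromosomes.

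The genes known as targets of MLL fusions in mouse leukemia, 11 in all with 190 regions, moved in both directions. They had 13 rises at 3 genes and 10 falls at 4, and a median of -0.29. That is 6.84% rising and 5.26% falling, beside 1.24% and 1.22% of all regions. Mef2c, a transcription factor gene of early lymphoid and myeloid progenitors, had 3 regions that fell, at -3.65, -1.86 and -2.93 (adjusted p = 4.51e-07, 6.09e-04 and 4.63e-04), by the authors' deposited table. Falls at Jmjd1c, a demethylase family gene, were -2.47 and -2.16 (adjusted p = 3.18e-04 and 2.27e-04) by the authors' deposited table. Eya1 fell at 2 regions and Meis1 at 3, while Cdk6 rose at 5. Hoxa9, Hoxa10, Pbx3 and Myc had no region that passed.

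For the series as a whole, the engineered Spi1 locus was lower in leukemic cells at 5 of its 14 regions, down to -7.30 by the authors' deposited table. That is 35.7%, beside 1.22% of all regions. At an adjusted p under 0.05 Spi1 had 9 negative regions and 1 positive one. Spi1 lies on chromosome 2, as does Phf21a, where the other regions within 2 Mb had a median of -0.88. No median was computed for the regions around Spi1. Whether its falls are particular to that locus was not tested. The 15 Tet2 regions held none that passed 0.001 or 0.05 after adjustment. Gene-end regions were present at 9 of 10 stem and progenitor marker genes, Kit and Cd34 included, and at 2 of 6 marker genes of tissues outside blood. They were also present at 5 of 6 erythroid, 4 of 6 T-cell, 4 of 5 B-cell and 4 of 5 neutrophil marker genes, types that the sort should deplete in part. The highest gene-end log2 abundance per gene ran from 0.09 to 4.84 for stem and progenitor genes and from 1.47 to 3.74 for neutrophil genes. It ran from -0.82 to 1.50 for erythroid, -2.04 to 2.52 for T-cell and -1.85 to 2.41 for B-cell genes, and from -1.91 to -1.05 outside blood. Among all regions 50.6% were positive, with a median of 0.02. At the marker genes 61 of 152 stem and progenitor regions were positive, with a median of -0.39. Of the 152, 14 fell and 6 rose, or 9.21% and 3.95%, beside 1.22% and 1.24% of all regions. Spi1 is on that list, so its 5 falls are among the 14. Of 30 neutrophil regions 3 were positive and 1 fell, with a median of -0.88. Of 23 regions at genes of tissues outside blood 2 were positive and 0 fell, with a median of -0.84. At an adjusted p under 0.05, 9.21% of all regions were negative and 7.98% positive. Those shares were 24.3% and 13.2% of stem and progenitor regions, 40.0% and 3.33% of neutrophil regions, and 13.0% and 0% outside blood. The erythroid, T-cell and B-cell genes had medians of 0.06, 0.30 and -0.32 and no region that passed 0.001. At 0.05 their negative shares were 8.70%, 5.26% and 6.85%, and their positive shares 4.35%, 0% and 0%. The part of a shift in cell types in the folds of the 10 genes was not tested.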

How the data were processed

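ATAC-seq libraries from 8 sorted marrow samples, 4 AML and 4 normal, underlie 1 deposited comparison. Per the submitters' processing notes, reads were processed against GRCm38 (mm10) with Bowtie2 2.4.1, SAMtools 1.10.2 and Genrich 0.6. The deposited file's title names csaw; the sources used here state neither its settings nor library scaling, read filters or a shift for the transposase. The authors' deposited table gives per region a log2 fold change, a log2 average abundance (a reading that rests on column order and range), a p-value and an adjusted p-value. The last was found equal to a Benjamini-Hochberg adjustment over all 160978 regions to within 2.39e-15, and the authors' more and less accessible sets to regions under 0.001. Coordinates are those of the deposited file, which does not state whether starts count from 0 or 1.

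Gene extents were read from RefSeq's list for GRCm38.p6, 49997 genes, which gives extents without exons. Regions were assigned and counted with Python 3.11.15 and pandas 2.3.3, on code tested on simulated data, and no test was added to the authors' own. All 10 genes are described; regions named singly were those under 0.001, the most abundant at gene ends, each gene's lowest adjusted p and its extreme folds, with their neighbours. The genes, lists and motifs were chosen with earlier results of these data known. Results of some listed genes are not reported here. Alternatives covered thresholds, assignment, abundance, the width of gene ends and centring.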

Additional observations from a re-analysis of the deposited data

How the results depend on the processing

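At an adjusted p under 0.0001 the members had 1 rise, at Kdm1a, and 0 falls; at 0.05 they had 10 positive and 1 negative regions. With protein-coding genes only there were 5 rises, and the gene-end median turned to -0.064. With any overlap of a gene's extent the gene-end median was 0.052, and with the chromosome's median subtracted it was 0.068 and the interior median 0.352. With the median within 2 Mb subtracted, which was chosen for the classes after seeing the data, the gene-end median turned to -0.30 and the interior median was 0.072, and the gene medians of Men1 and Dot1l turned to -0.106 and -0.091. A distance of 20 kb, leaving out the 20% of regions lowest in abundance, and, chosen after seeing the data, leaving out regions shared with another gene or wider than 1000 bp kept the counts of rises between 2 and 3 and of falls at 1, with interior medians from 0.48 to 0.56. Leaving out a replicate was not run, since the table has 1 fold per region and no library columns, and how far depth limits each fold is unknown. No paired analysis was possible because the deposited values combine the libraries.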
